A study of Oryza sativa with 12 samples.

Results

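The 9 clade A protein phosphatase 2C (PP2C) genes of rice described here are PP2C06, PP2C08, PP2C09, PP2C30, PP2C49, PP2C50, PP2C51, PP2C53 and PP2C68. They were taken by identifier from the 35679 genes listed in each library, as members of the clade, and all 9 were found. Each had enough reads to be tested in every comparison. Their identifiers place PP2C06 (OS01G0583100), PP2C08 (OS01G0656200) and PP2C09 (OS01G0846300) on chromosome 1 and PP2C30 (OS03G0268600) on chromosome 3. PP2C49 (OS05G0457200), PP2C50 (OS05G0537400), PP2C51 (OS05G0572700) and PP2C53 (OS05G0592800) lie on chromosome 5, and PP2C68 (OS09G0325700) lies on chromosome 9.

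Leaf RNA of unstressed plants at the four-leaf stage was sequenced in 4 groups of 3 libraries, each library made from a pool of plants. OsbZIP62V plants overexpressed the bZIP transcription factor OsbZIP62 fused to VP64, a transcription activation module, in the cultivar Kitaake, and were compared with wild-type Kitaake. The osbzip62 plants were a homozygous CRISPR/Cas9 mutant in the cultivar Nipponbare, compared with wild-type Nipponbare. The promoter of the VP64 construct is given by neither the labels nor the methods. The labels give 1 line for each genotype, so a line cannot be told apart from its genotype, and the background cultivar differs between the overexpressor and the mutant.

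Clade A PP2Cs hold the abscisic acid (ABA) pathway off. Without the hormone they dephosphorylate the SnRK2 kinases, called SAPKs in rice, and keep them inactive. ABA bound to a PYL/RCAR receptor blocks the phosphatase, the kinase is released, and bZIP factors of the ABF/AREB type are phosphorylated and switch on genes with ABA-responsive elements. Genes of clade A PP2Cs are themselves induced by ABA in many plants, which makes them both brakes on the pathway and common readouts of it. In rice, PP2C30 binds an ABA receptor and SAPK2, PP2C50 has been crystallised with a receptor and ABA, and PP2C51 promotes seed germination.

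OsbZIP62, the manipulated gene, was read at 1200, 1040 and 836 CPM in the OsbZIP62V libraries (read counts scaled to the library total and by the trimmed mean of M values, TMM). It was at or below 0.447 CPM in Kitaake, 0.845 CPM in Nipponbare and 0.994 CPM in osbzip62, so the mutant and its wild type overlapped and the transcript level does not check the mutation. Total gene counts ran from 9224755 to 19759728 per library. Libraries of 1 group did not always lie together: on the first principal component of 21878 genes, which held 44.4% of the variance, OsbZIP62V replicate 2 was at -67.6 and the other OsbZIP62V libraries were at 37.7 and 93.9. The Nipponbare libraries ran from -24.2 to 145. The chlorophyll-binding protein gene CAB2 moved with this split, at 1520, 44.1 and 2380 CPM in OsbZIP62V and at 4150, 7840 and 357 CPM in Nipponbare, and at 21.4, 16.2 and 13.8 CPM in Kitaake. CAB, a further chlorophyll-binding gene, was abundant in every library, from 1750 CPM in Kitaake to 9140 CPM in Nipponbare. CAB2 was higher in OsbZIP62V than in Kitaake (log2 fold change 6.30, edgeR adjusted p = 0.0254), as most of the phosphatase genes below. CAB2 (log2 difference -7.93, edgeR adjusted p = 0.0038) and CAB (-1.88, edgeR adjusted p = 0.00567) were lower in Kitaake than in Nipponbare. Both were also called in the difference of effects described below, in the direction of PP2C09, PP2C49 and PP2C68 (edgeR adjusted p = 0.0323 and 0.0336). In osbzip62 versus Nipponbare the log2 fold changes of all 9 phosphatase genes were above 0. Those of CAB2 (-1.98, edgeR adjusted p = 0.401) and CAB (-1.03, edgeR adjusted p = 0.192) were below 0 and not called. The part of CAB2 and CAB in the results on the phosphatase genes was not tested.

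In the OsbZIP62V plants, 6 of the 9 phosphatase genes rose against Kitaake and none fell (edgeR quasi-likelihood test, adjusted p under 0.05). Of the 19864 genes tested, 4.54% rose and 2.89% fell. All 6 changed by more than 1 on the log2 scale, a rule that 3.87% of all genes passed upward. The median log2 fold change of the 9 was 1.40, against 0.02 over all genes tested. The genes that rose were PP2C06, PP2C09, PP2C30, PP2C49, PP2C50 and PP2C68, and the same 6 had no overlap between the groups in CPM, which 15% of all genes showed upward. In whole leaves a change in the share of cells that express a gene and a change in RNA per cell cannot be told apart.

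PP2C09, a negative regulator of ABA signalling in rice, had 64.2, 74.5 and 53.5 CPM in Kitaake and 424, 395 and 339 CPM in OsbZIP62V. Every overexpressor library stood far above every Kitaake library. The log2 fold change was 2.61 (SE 0.18, 95% interval 2.19 to 3.02, edgeR adjusted p = 0.000465), which is 6.10-fold.

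PP2C06 had 33.1, 35.7 and 27.7 CPM in Kitaake and 144, 146 and 138 CPM in OsbZIP62V. The 3 overexpressor values were nearly alike and the groups did not overlap. The log2 fold change was 2.17 (SE 0.15, 95% interval 1.83 to 2.5, edgeR adjusted p = 0.000409).

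PP2C68, known to be ABA-inducible, had 3.80, 8.49 and 5.66 CPM in Kitaake and 51.9, 62.0 and 56.6 CPM in OsbZIP62V. It moved from a low transcript to a well-read one, with no overlap. The log2 fold change was 3.25 (SE 0.27, 95% interval 2.62 to 3.87, edgeR adjusted p = 0.00104).

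PP2C49, a target of the ABA factor OsbZIP23 in rice, had 0.447, 0.310 and 0.0993 CPM in Kitaake, from 4, 5 and 2 reads, and 4.76, 3.19 and 6.88 CPM in OsbZIP62V. It was the least abundant of the 6, and its Kitaake level rests on 11 reads in all. Its log2 fold change was the largest of the 9 but also the least precise of the 6, at 4.25 (SE 0.55, 95% interval 2.99 to 5.52, edgeR adjusted p = 0.00550).

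PP2C30 had 90.4, 108 and 68.4 CPM in Kitaake and 237, 260 and 198 CPM in OsbZIP62V. PP2C50 had 49.5, 44.1 and 39.6 CPM in Kitaake and 111, 120 and 79.6 CPM in OsbZIP62V. Both genes were already among the better-read members in wild-type leaves, and neither overlapped between the groups. Their log2 fold changes were smaller than those of the other 4, at 1.40 (SE 0.20, edgeR adjusted p = 0.00775) for PP2C30 and 1.24 (SE 0.18, edgeR adjusted p = 0.00939) for PP2C50. These 2 calls depended on the number of wild-type libraries: PP2C50 had an adjusted p of 0.0661 without Kitaake replicate 1, 0.103 without replicate 2 and 0.0905 without replicate 3. PP2C30 had 0.0779 without Kitaake replicate 1 and 0.0534 without replicate 3, and PP2C49 had 0.0738 without replicate 2, so that 4 members were called in each case. PP2C06, PP2C09 and PP2C68 were called whichever Kitaake library was left out. The share of all genes called higher at these settings fell as well, to 0.676%, 0.577% and 0.532% without Kitaake replicate 1, 2 and 3.

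The remaining members did not pass the test in OsbZIP62V. PP2C53 had 41.2, 48.7 and 50.3 CPM in Kitaake and 56.1, 50.2 and 43.6 CPM in OsbZIP62V, with a log2 fold change of 0.11 (95% interval -0.23 to 0.45). PP2C08 had 2.68, 4.65 and 2.78 CPM in Kitaake and 3.14, 3.14 and 2.96 CPM in OsbZIP62V, with a log2 fold change of -0.12 (95% interval -0.80 to 0.56). For PP2C53 and PP2C08 the groups overlapped, and both intervals end below 0.82, the lower bound of the log2 fold change of PP2C50. PP2C51 was close to the lower limit of reading in both groups, at 1.79, 1.30 and 0.993 CPM in Kitaake and 1.01, 1.22 and 1.16 CPM in OsbZIP62V (log2 fold change -0.22, 95% interval -1.09 to 0.66).

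**Figure D1:**
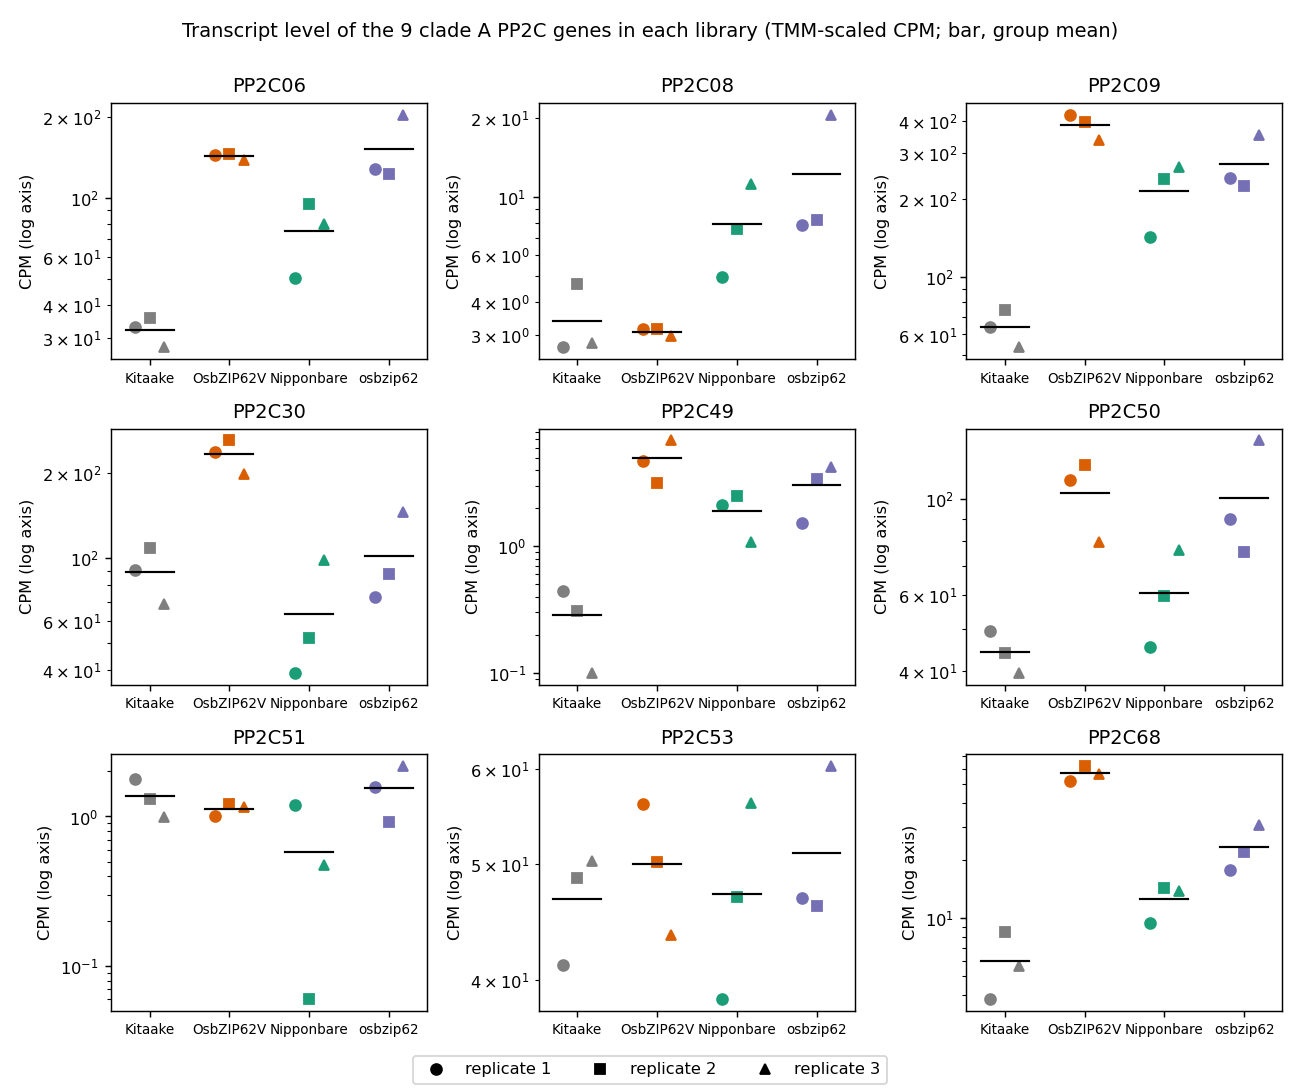
TMM-scaled CPM on log axes of the 9 genes in each of the 12 libraries, with markers for replicates 1 to 3 and a bar at the group mean. The OsbZIP62V libraries lie above all Kitaake libraries for PP2C06, PP2C09, PP2C30, PP2C49, PP2C50 and PP2C68, and osbzip62 replicate 3 is the highest of its group in all 9 panels.

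Within OsbZIP62V, replicate 3 gave the lowest value for 6 of the 9 members and replicate 2 the highest for 5. Without TMM scaling replicate 3 was lowest for 3 and highest for 5, so this order depends on the scaling. In size, PP2C09 differed between these libraries from 339 to 424 CPM and PP2C49 from 3.19 to 6.88 CPM, where CAB2 differed from 44.1 to 2380 CPM. The median SD of log2 CPM among the OsbZIP62V libraries was 0.16 for the 9 members and 0.31 for all 21878 genes. In the other groups the members spread more than the typical gene, with a median SD of 0.33 against 0.26 in Kitaake, 0.48 against 0.38 in Nipponbare and 0.44 against 0.24 in osbzip62.

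In the osbzip62 mutant no member passed the test against Nipponbare (edgeR, adjusted p under 0.05), in a comparison in which 0.377% of 20398 genes rose and 0.0441% fell. At an unadjusted p under 0.05, 3 members were higher and none lower, where 8.67% of all genes were higher and 8.19% lower. DESeq2 called 1 member, PP2C06 (adjusted p = 0.0369), where it called 3.35% of 21398 genes higher and 2.94% lower. The log2 fold change was above 0 for all 9 members, with a median of 0.67 against -0.04 over all genes tested. The exception among the alternatives was PP2C53, at -0.04 without osbzip62 replicate 3 and -0.03 without Nipponbare replicate 1, and PP2C08 stood at 0.00 without osbzip62 replicate 3.

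PP2C06 had 50.3, 94.4 and 79.8 CPM in Nipponbare and 128, 122 and 204 CPM in osbzip62. PP2C68 had 9.40, 14.4 and 13.8 CPM in Nipponbare and 17.8, 22.0 and 30.6 CPM in osbzip62. In both genes every mutant library was above every wild-type library, which held for 13.6% of all genes upward. Without TMM scaling 5 members, PP2C09, PP2C50 and PP2C53 added, had no overlap, and so had 20.7% of all genes. The log2 fold changes were 1.00 for PP2C06 (SE 0.30, 95% interval 0.30 to 1.70, edgeR adjusted p = 0.170) and 0.88 for PP2C68 (SE 0.26, 95% interval 0.28 to 1.49, edgeR adjusted p = 0.163). PP2C50 had 45.5, 59.8 and 76.5 CPM in Nipponbare and 90.1, 75.5 and 137 CPM in osbzip62, with an overlap of 1 wild-type library and a log2 fold change of 0.72 (SE 0.28, edgeR adjusted p = 0.268).

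The other members overlapped more. PP2C09 had 143, 239 and 265 CPM in Nipponbare and 242, 224 and 354 CPM in osbzip62, a log2 fold change of 0.32 (95% interval -0.35 to 0.99). PP2C30 had 39.1, 52.0 and 98.5 CPM in Nipponbare and 72.6, 87.5 and 145 CPM in osbzip62, a log2 fold change of 0.67 (SE 0.40). In PP2C09 and PP2C30, Nipponbare replicate 1 was the lowest library and osbzip62 replicate 3 the highest.

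PP2C08 had 4.97, 7.55 and 11.2 CPM in Nipponbare and 7.84, 8.17 and 20.6 CPM in osbzip62. PP2C49 had 2.11, 2.48 and 1.08 CPM in Nipponbare and 1.52, 3.41 and 4.22 CPM in osbzip62. Neither separated the mutant from its wild type. PP2C53 had 38.6, 46.9 and 56.2 CPM in Nipponbare and 46.8, 46.1 and 60.3 CPM in osbzip62. PP2C51 was read 22, 1 and 7 times in Nipponbare, or 1.19, 0.0604 and 0.473 CPM, and had 1.57, 0.919 and 2.17 CPM in osbzip62, so that its log2 fold change of 1.37 (SE 0.82) is poorly fixed.

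The mutant libraries were not alike. Replicate 3 gave the highest osbzip62 value for 9 of 9 members, with and without TMM scaling. In Nipponbare the lowest value came from replicate 1 for 7 of 9 members under both scalings. Without osbzip62 replicate 3 the log2 fold change of PP2C06 was 0.72, that of PP2C50 0.43 and that of PP2C68 0.65.

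**Figure D2:**
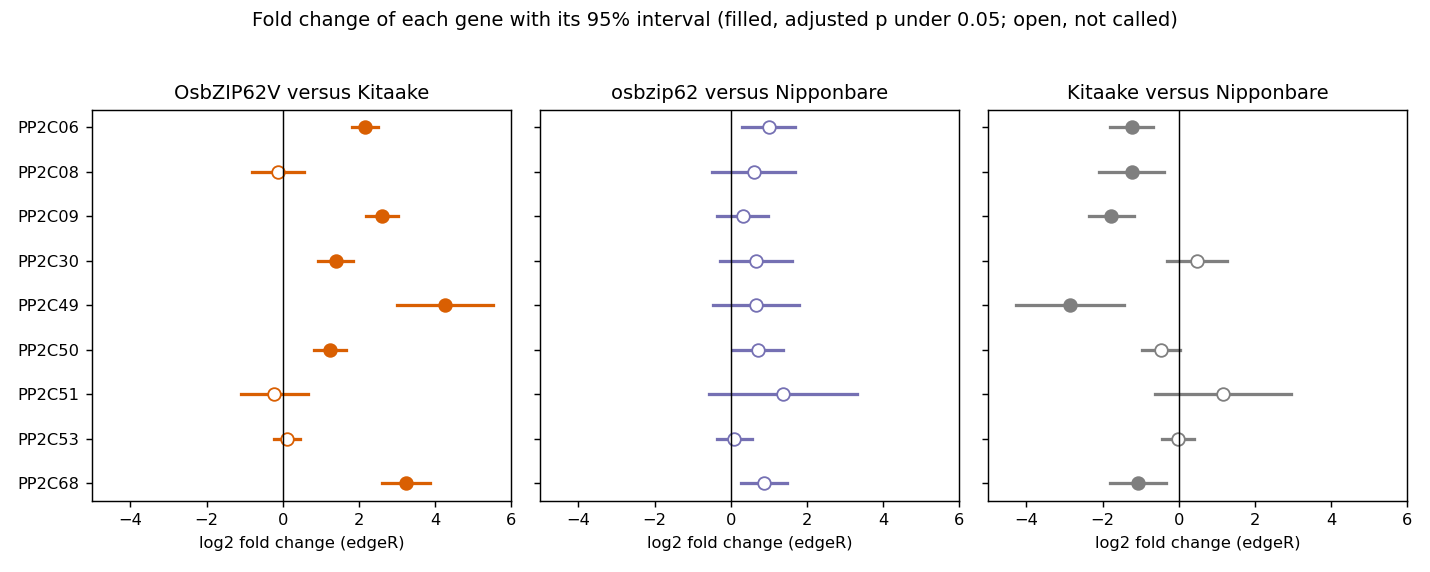
edgeR log2 fold changes of the 9 genes in 3 comparisons, as points with 95% intervals, filled where the adjusted p was under 0.05. In OsbZIP62V versus Kitaake 6 points are filled and lie right of 0, in osbzip62 versus Nipponbare none is filled, and in Kitaake versus Nipponbare 5 are filled and lie left of 0.

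The wild types also differed in these genes. Against Nipponbare, 5 of the 9 members were lower in Kitaake and none was higher (edgeR, adjusted p under 0.05), where 10.4% of 19749 genes were lower and 9.51% higher. The median log2 difference was -1.07 for the members and -0.04 for all genes tested. PP2C09 was lower by 1.77 on the log2 scale (log2 difference -1.77, SE 0.26, adjusted p = 0.00391), with group means of 64.1 ± 10.5 CPM in Kitaake and 216 ± 64.2 CPM in Nipponbare (SD, n = 3). PP2C06 differed by -1.24 (SE 0.24, edgeR adjusted p = 0.0122) and PP2C49 by -2.85 (SE 0.61, edgeR adjusted p = 0.0168).

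PP2C08 (log2 difference -1.24, edgeR adjusted p = 0.0497) and PP2C68 (-1.07, edgeR adjusted p = 0.0492) were called only just. The same 5 genes had no overlap between the wild types, which 19.2% of all genes showed downward. PP2C30 (log2 difference 0.48, SE 0.34), PP2C50 (-0.46, SE 0.21), PP2C51 (1.16, SE 0.77) and PP2C53 (-0.03, SE 0.18) did not pass the test. Without Nipponbare replicate 3, PP2C30 was called higher in Kitaake at 0.95 (edgeR adjusted p = 0.0142). With any 1 Kitaake library left out the count fell to 1, PP2C09, and without Nipponbare replicate 2 it was 2, PP2C06 and PP2C09. The share of all genes called lower fell too, to between 2.48% and 3.37% without a Kitaake library and to 5.51% without Nipponbare replicate 2. This comparison shares its Kitaake libraries with the overexpressor comparison and its Nipponbare libraries with the mutant comparison, so the fold changes are not independent of each other.

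The effect of OsbZIP62V in Kitaake was then set against the effect of osbzip62 in Nipponbare, in 1 fit of all 12 libraries. The difference was called for 3 members, all with the larger rise in OsbZIP62V, where 3.85% of 21878 genes were called in that direction and 3.25% in the other. It was 2.24 on the log2 scale for PP2C09 (SE 0.35, 95% interval 1.48 to 3.01, edgeR adjusted p = 0.00760), 2.32 for PP2C68 (SE 0.40, edgeR adjusted p = 0.0118) and 3.51 for PP2C49 (SE 0.78, edgeR adjusted p = 0.0298). PP2C06 came next at 1.12 (SE 0.34, edgeR adjusted p = 0.0662, or 0.0407 without Nipponbare replicate 1). For PP2C30 (0.69, SE 0.48) and PP2C50 (0.48, SE 0.36) the 2 effects were not told apart. Genotype and cultivar cannot be told apart in this difference.

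The PP2C49 difference was no longer called without Kitaake replicate 2 or 3, OsbZIP62V replicate 1 or 3, Nipponbare replicate 1 or 2, or osbzip62 replicate 1 or 3. The edgeR adjusted p then lay between 0.0517 and 0.0754. PP2C68 averaged 56.8 ± 5.06 CPM in OsbZIP62V, 12.5 ± 2.74 CPM in Nipponbare and 23.4 ± 6.53 CPM in osbzip62 (SD, n = 3). PP2C06 averaged 143 ± 4.18 CPM in OsbZIP62V and 151 ± 46.1 CPM in osbzip62, which overlap. PP2C08 stood higher in the mutant, at 3.08 ± 0.100 CPM in OsbZIP62V and 12.2 ± 7.27 CPM in osbzip62. These levels across cultivars are given side by side and were not tested.

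To compare the genes with each other, the deposited RPKM values were used, which are normalised for gene length and depth. The lengths behind them ran from 1407 bases for PP2C68 to 5897 for PP2C06 and 5334 for PP2C08, and their span is stated in none of the sources used here. In Kitaake the order was PP2C30 (43.0 RPKM), PP2C09 (30.3), PP2C50 (26.6), PP2C53 (12.8), PP2C06 (5.33), PP2C68 (4.15), PP2C08 (0.616), PP2C51 (0.60) and PP2C49 (0.149). The ranges of PP2C09 and PP2C50 overlapped, as did those of PP2C06 and PP2C68 and those of PP2C08 and PP2C51.

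In OsbZIP62V the leading gene was PP2C09 (197 RPKM), ahead of PP2C30 (121), PP2C50 (66.5), PP2C68 (42.9), PP2C06 (25.6), PP2C53 (14.7) and PP2C49 (2.87), with no overlap between neighbours. PP2C08 (0.611 RPKM) and PP2C51 (0.545) came last and overlapped. PP2C68 and PP2C06 thus passed PP2C53, which they lay below in Kitaake. If the lengths of PP2C06 and PP2C08 include more than the transcript, their RPKM understates their level, and their places in the order would be too low in every group.

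Nipponbare was also led by PP2C09 (95.9 RPKM). PP2C50 (34.2) and PP2C30 (28.3) overlapped, as did PP2C53 (12.2) with PP2C06 (11.7) and PP2C06 with PP2C68 (8.25), and PP2C08 (1.35), PP2C49 (0.981) and PP2C51 (0.262) formed the low end. In osbzip62 the order was PP2C09 (136 RPKM), PP2C50 (63.4), PP2C30 (51.8), PP2C06 (26.3), PP2C68 (17.1), PP2C53 (14.7), PP2C08 (2.33), PP2C49 (1.69) and PP2C51 (0.716). PP2C50 and PP2C30 overlapped, and so did PP2C68 and PP2C53 and the 3 lowest genes with their neighbours.

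Summed over the 9 genes, the clade held 124, 137 and 110 RPKM in Kitaake and 454, 496 and 466 RPKM in OsbZIP62V. It held 159, 204 and 216 RPKM in Nipponbare and 267, 271 and 403 RPKM in osbzip62. Neither pair of groups overlapped in this sum, which carries no TMM scaling. For osbzip62 and Nipponbare the lack of overlap depended on that. The TMM factors were 0.8115 for Nipponbare replicate 3 and 1.078 for osbzip62 replicate 2. Divided by them, the sum of this Nipponbare library exceeds that of this osbzip62 library. PP2C09 made up 24.5% of the sum in Kitaake, 41.8% in OsbZIP62V, 49.5% in Nipponbare and 43.5% in osbzip62, and PP2C30 made up 34.6%, 25.6%, 14.5% and 16.3% in the same order.

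**Figure D3:**
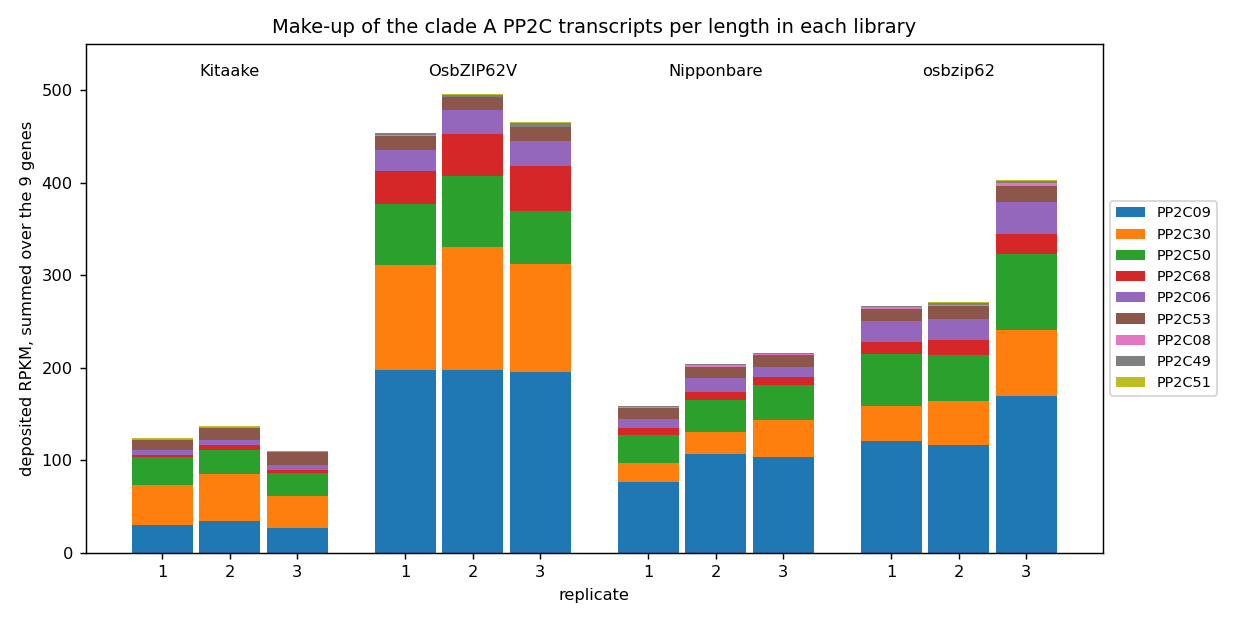
Stacked bars of deposited RPKM for the 9 genes in each library, from 0. The total is 454 to 496 RPKM in OsbZIP62V against 110 to 137 RPKM in Kitaake, and PP2C09 is the largest band in every library outside Kitaake.

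Ratios of 2 members within a library do not depend on how libraries are scaled. PP2C09 over PP2C30, in RPKM, was 0.694, 0.674 and 0.764 in Kitaake and 1.75, 1.49 and 1.68 in OsbZIP62V. The Nipponbare ratios were 3.58, 4.5 and 2.63, and those of osbzip62 were 3.26, 2.5 and 2.38. PP2C09 was therefore the lesser of the pair in every Kitaake library and the greater in all others, and its lead was widest in the Nipponbare background. PP2C68 over PP2C53 was 0.235, 0.443 and 0.286 in Kitaake, 2.35, 3.14 and 3.29 in OsbZIP62V, 0.619, 0.782 and 0.624 in Nipponbare and 0.966, 1.21 and 1.29 in osbzip62. For this ratio both transgenic groups stood wholly above their wild types, as they did for PP2C06 and PP2C50 over PP2C53. PP2C09 over PP2C53 overlapped, at 8.99, 8.41 and 10.2 in osbzip62 and 6.43, 8.86 and 8.17 in Nipponbare. PP2C30 over PP2C53 also overlapped between these groups. The ratios were not tested.

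Across the 12 libraries the members fell into unlike profiles. Pearson r of log2 CPM was 0.96 between PP2C06 and PP2C09, 0.93 between PP2C06 and PP2C50 and 0.91 between PP2C09 and either PP2C49 or PP2C68. Among the 6 genes that rose in OsbZIP62V the 15 pairs ran from 0.43 to 0.96, and without PP2C30 the lowest was 0.75. PP2C08 and PP2C30 had an r of -0.21. The 6 were picked by their rise in these same libraries, so high r among them was partly fixed in advance. All r values describe 4 groups of 3 replicates, which share their group and cultivar.

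The genes most like a member in profile over the 12 libraries were taken as the 3 highest correlations for each. Only some carry a name, and names came from the authors' lists of genes changed in these libraries. Each r was picked as the highest over all genes, so a high value was partly fixed in advance. For PP2C09 they included a putative peptide transporter PTR2 (LOC_Os03g60850, r = 0.984) and OsbZIP23 (r = 0.964). For PP2C50 they included SRWD5 (LOC_Os03g26870, r = 0.976) and MOTHER of FT and TFL1 homolog 1 (LOC_Os06g30370, r = 0.959). PP2C68 was most like a named gene in a Ninja-family protein (LOC_Os03g11550, r = 0.966), PP2C06 in AMSH-like ubiquitin thioesterase 2 (LOC_Os01g47262, r = 0.965) and PP2C49 in a cytochrome c oxidoreductase-like gene (LOC_Os03g22200, r = 0.955). For PP2C51 a putative nicotinamide N-methyltransferase domain gene (LOC_Os02g02800, r = 0.888) was among them. No named gene was among those of PP2C08 or PP2C53.

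The rest of the ABA pathway was read through the identifiers that could be given a name. These were all genes the authors had listed as changed in these libraries, so their counts are no independent evidence of change or direction. Named were 1 of 10 SAPK kinases, 4 of 7 ABA bZIP factors and 6 of 11 ABA-induced genes. No receptor gene could be named. SAPK2, the kinase that PP2C30 acts on in rice, had 143, 199 and 156 CPM in Kitaake and 80.6, 94.8 and 71.3 CPM in OsbZIP62V, and fell with no overlap (log2 fold change -1.0, SE 0.17, edgeR adjusted p = 0.0167). In osbzip62 it had 109, 85 and 99.4 CPM against 65.6, 63.4 and 75.7 CPM in Nipponbare, a log2 fold change of 0.50 (edgeR adjusted p = 0.189). The difference between these effects was -1.54 (SE 0.24, edgeR adjusted p = 0.00749), opposite in sign to that of PP2C09, PP2C49 and PP2C68.

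All 4 named ABA bZIP factors rose in OsbZIP62V, OsbZIP62 itself among them, where 4.54% of all genes rose. OsbZIP23, a central ABA-responsive activator in rice, had 10.8, 16.9 and 13.0 CPM in Kitaake and 67.1, 66.2 and 67.0 CPM in OsbZIP62V (log2 fold change 2.31, SE 0.18, edgeR adjusted p = 0.000794). It had 41.5, 58.0 and 52.7 CPM in Nipponbare and 63.1, 53.0 and 87.1 CPM in osbzip62. Like PP2C09 it was lower in Kitaake than in Nipponbare (log2 difference -1.91, edgeR adjusted p = 0.00143). OsbZIP46 rose by 2.22 (edgeR adjusted p = 0.0177) and OsbZIP12 by 0.97 (edgeR adjusted p = 0.0223). None of the 4 passed in osbzip62. OsbZIP12 had 31.0, 33.5 and 67.7 CPM in osbzip62 and 12.8, 15.9 and 9.80 CPM in Nipponbare (log2 fold change 1.76, edgeR adjusted p = 0.0799). The difference between its effects in OsbZIP62V and osbzip62 was not called (-0.83, SE 0.42, edgeR adjusted p = 0.231). OsbZIP46 overlapped between osbzip62 and Nipponbare (log2 fold change 0.19).

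All 6 named ABA-induced genes also rose in OsbZIP62V, where 4.54% of all genes rose. None of the 5 that could be tested passed in osbzip62, where 0.377% of all genes rose. Large differences short of the threshold were still seen in osbzip62, without overlap with Nipponbare, which 13.6% of all genes showed upward. The differences were 4.19 on the log2 scale for RAB21 (edgeR adjusted p = 0.0766) and 3.06 for LOC_Os01g50910 (edgeR adjusted p = 0.0966), besides HOX24 below. RAB21 had only 1, 3 and 0 reads in Nipponbare. SALT (-1.15) and HOX22 (0.02) overlapped between osbzip62 and Nipponbare. The homeobox gene HOX24 had 0.224, 0.868 and 1.14 CPM in Kitaake and 26.9, 26.3 and 25.9 CPM in OsbZIP62V (log2 fold change 5.03, SE 0.37, edgeR adjusted p = 0.000632). In osbzip62 it had 12.3, 15.3 and 55.3 CPM against 3.24, 2.29 and 2.91 CPM in Nipponbare (log2 fold change 3.26, SE 0.62, edgeR adjusted p = 0.0766). As with the 9 phosphatases, its highest mutant library was replicate 3. The dehydrin RAB21 rose by 4.77 in OsbZIP62V from 0, 0 and 3 reads in Kitaake (edgeR adjusted p = 0.0116). LEA3 rose by 2.89 (edgeR adjusted p = 0.0421) and HOX22 by 1.42 (edgeR adjusted p = 0.0219).

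**Figure D4:**
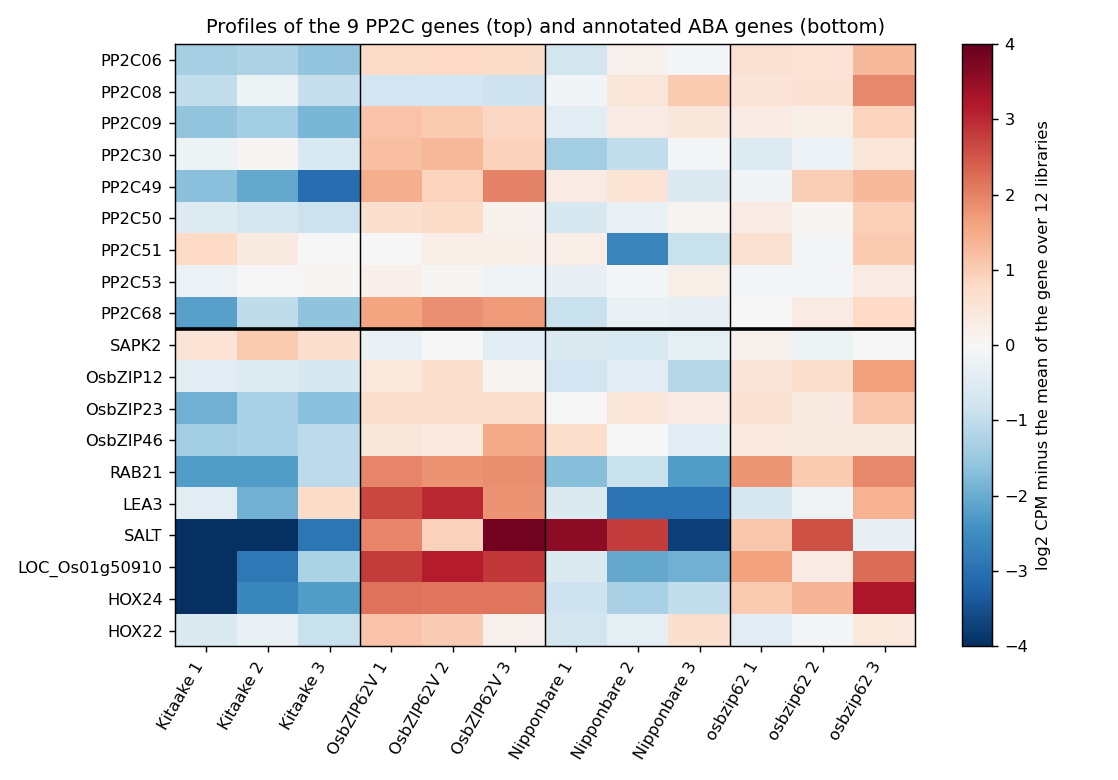
Log2 CPM of each gene minus its mean over 12 libraries, with colours limited to -4 and 4, for the 9 PP2C genes above the line and the named ABA genes below it. PP2C09 and OsbZIP23 are low in Kitaake and raised in OsbZIP62V, SAPK2 runs the other way between those groups, and PP2C53 is close to 0 throughout.

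Rice has many PP2C genes outside this set of 9, and 10 could be named from the authors' lists of changed genes, which again is no independent evidence. In OsbZIP62V none of the 9 tested rose and 5 fell (edgeR, adjusted p under 0.05), where 4.54% of all genes rose and 2.89% fell. LOC_Os06g48300 came near a call upward (log2 fold change 1.38, edgeR adjusted p = 0.0557). In osbzip62 it differed from Nipponbare by 1.64 (edgeR adjusted p = 0.0915). PP2C29 averaged 53.1 ± 4.02 CPM in Kitaake and 20.3 ± 4.92 CPM in OsbZIP62V (SD, n = 3, log2 fold change -1.37, edgeR adjusted p = 0.00706). PP2C32 averaged 171 ± 17.1 CPM in Kitaake and 69.9 ± 7.60 CPM in OsbZIP62V (SD, n = 3, log2 fold change -1.27, edgeR adjusted p = 0.00361). Between the wild types 6 of these 9 were higher in Kitaake and 1 was lower, where 9.51% of all genes were higher and 10.4% lower. Of the 9 clade A members 5 were lower and none higher. Because the genes outside the clade were named for a change in these same libraries, these counts do not compare classes of PP2C.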

How the data were processed

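Leaf RNA libraries (TruSeq v2, which does not mark strand, sequenced on an Illumina instrument) were trimmed by the authors with SeqPrep and Sickle and aligned with HISAT2 2.1.0. IRGSP-1.0 is the build in the submitters' processing notes, which list HTSeq 0.6.1p2 and Bowtie2 2.2.3 too. The annotation release and the handling of reads shared by related genes are not given in the sources used here. Raw read counts per gene and RPKM values were deposited by the authors. The deposited counts were tested, and the deposited RPKM values were used, untested, to compare the genes with each other and for their sum in each library.

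Counts were analysed with edgeR 4.0.16 in R 4.3.3 (filterByExpr, TMM, quasi-likelihood test, Benjamini-Hochberg adjustment over all tested genes, threshold 0.05), with 6 libraries in each pairwise comparison and 12 in the difference of effects. The same code was tested on simulated data. DESeq2 1.42.0, other size factors, no filter, a replicate block, 1 fit of all libraries and leaving out each library were the alternatives. Correlations used log2 CPM with a prior count of 2. All 9 members were named, and other genes where a source annotates them: 13 of 57 listed identifiers, by matching rows of the authors' supplementary tables, whose fold changes were used only for that matching (relative tolerance 6e-06) and are not reported. The members and lists were chosen with earlier results of these data known. The sources state biological replicates, but samples of 1 line measure only the spread within it. Total counts of 9224755 to 19759728 make levels under 1 CPM rest on few reads. No sequences are shown.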

Additional observations from a re-analysis of the deposited data

Results flagged for a closer look

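For 3 members the effect of OsbZIP62V in Kitaake and that of osbzip62 in Nipponbare differed by a direct test (edgeR, interaction over 12 libraries): PP2C09 by 2.24, PP2C49 by 3.51 and PP2C68 by 2.32 on the log2 scale. The difference was called in this direction for 3.85% of all genes tested. All 3 were higher in 3 of 3 OsbZIP62V libraries than in any Kitaake library, which 15% of all genes showed. PP2C49 is the weakest of the 3, with 11 reads in all in Kitaake. Its difference was not called with the replicate block (edgeR adjusted p = 0.0724). Leaving out a single library lost its call in some fits and kept it in others. PP2C09 and PP2C68 kept the call in all of these fits. The groups differ in cultivar as well as in genotype, and these cannot be told apart.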

How the results depend on the processing

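Of 441 values for single members under the alternatives, 387 kept their direction and side of the threshold, 38 lost the call, 5 gained one and 11 changed sign, none of them called. PP2C08 in OsbZIP62V ran from -0.26 to 0.17 (log2) with 1 library left out. PP2C53 then ran from -0.04 to 0.23 in osbzip62, from -0.15 to 0.11 between the wild types and from -0.16 to 0.10 in the difference of effects, and was 0.01 between the wild types with no filter. In OsbZIP62V versus Kitaake 6 members were called under DESeq2, other size factors, no filter, the block and the 12-library fit, and 4 to 6 with 1 library left out. In osbzip62 versus Nipponbare DESeq2 called 1 and the 12-library fit 1 (PP2C06), and leaving out 1 library gave 0 throughout. DESeq2 called 3.35% of all genes higher there and the 12-library fit 2.18%. Without osbzip62 replicate 1 or 3 the share was 0% in both directions, so these fits could call no member. Leaving out any other library called 0.0429% to 1.22% of all genes higher. In Kitaake versus Nipponbare other size factors gave 3 and no filter 3, and leaving out 1 library gave 1 to 5. The difference of effects was called for 4 members by DESeq2 and 2 to 3 with 1 library left out, PP2C09 and PP2C68 in all. With CPM from library totals alone, an alternative chosen after seeing the data, 5 members in place of 2 did not overlap between osbzip62 and Nipponbare, and 20.7% of all genes in place of 13.6%. The cause of these shifts was not tested.

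The replicate numbers did not pair the libraries: the correlation of same-numbered deviations ran from -0.254 to 0.376 between osbzip62 and Nipponbare. Some differently numbered libraries varied together more strongly. The deviations of osbzip62 replicate 2 had an r of 0.512 with Nipponbare replicate 1 and -0.565 with Nipponbare replicate 3. The source of this shared variation was not tested. With the replicate block 6, 0 and 4 members were called in OsbZIP62V, osbzip62 and Kitaake comparisons, and 2 in the difference of effects, where PP2C49 had an adjusted p of 0.0724. The block called 0% of all genes in osbzip62 versus Nipponbare in both directions, so its 0 members there are not particular to the clade. Over all genes, DESeq2 called 2081 genes higher in OsbZIP62V where edgeR called 901, and 716 higher in osbzip62 where edgeR called 77. PP2C49 and PP2C51 are limited by depth, PP2C51 having 22 reads or fewer in each Nipponbare library.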
